A study of Mus musculus with 3 samples.

Results

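The Hox genes of sorted mouse back skin cells were described in RNA-sequencing libraries of polyadenylated RNA. The 38 genes were taken by symbol from a table of 44625 gene entries. They were 10 genes of cluster a, 10 of cluster b, 9 of cluster c and 9 of cluster d. The table held 39 symbols of this form, and the remaining gene, in cluster a, was not analysed here. All 3 libraries formed 1 group: wild-type mice, 56 days old, back skin, cells labelled Alpha6+/Sca1- and collected at second telogen, a resting stage of the follicle. Integrin alpha6 is a laminin receptor of basal epithelial cells, and Sca1 is a surface protein that marks much of the epidermis outside the lower follicle. The sorting protocol in the labels names an antibody to integrin alpha6, and none to Sca1. The labels speak of duplicates while 3 samples are listed, so how many independent collections of cells lie behind each SD is unclear.

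Hox genes encode homeodomain transcription factors. In mammals they sit in 4 clusters, and within a cluster the order of the genes along the chromosome follows the order in which they are used along the body, from head (low paralog number) to tail (high paralog number). The combination of active Hox genes is kept by adult cells as a record of their position on the body. Repression of the others is associated with Polycomb complexes and with trimethylation of lysine 27 on histone H3 (H3K27me3), and Hox clusters are the textbook example of broad domains of this mark.

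The libraries held 29283936 to 39198620 counts. Hair follicle stem cell markers were present in every library, with 8 of 8 at a TPM (a level per gene length, on a scale common to the libraries) of at least 1. They included Krt15 with 19607 to 25612 TPM and Cd34 with 472 to 581 TPM. Of the 8 fibroblast markers, 3 reached 1 TPM in every library, and their summed level was 23.5 to 54.5 TPM. These 3 were Col1a1 with 7.36 to 23.3 TPM, Col1a2 with 10.0 to 23.2 TPM and Thy1 with 5.48 to 11.1 TPM. Col3a1 was at 0.00744 to 0.0462 TPM, and no library held a count of Lum or Dpt. The sorted antigens were Itga6 with 102 to 120 TPM and Ly6a, which encodes Sca1, with 3.16 to 11.6 TPM. Of 4 endothelial markers, Cdh5, Emcn and Cldn5 had 0 counts. Melanocyte markers summed to 38.7 to 60.0 TPM with 3 of 6 detected, and immune markers to 10.2 to 19.4 TPM with 2 of 4 detected. These bulk libraries cannot separate a Hox gene used by few cells from one used weakly by all cells.

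The Hox genes in the middle of the clusters were on, and most posterior ones were off. A TPM of at least 1 in every library, called detected here, was reached by 23 of 38 Hox genes. This share was 52.2% over all protein-coding genes. All 15 genes of paralog groups 5 to 9 were detected, as were 7 of 11 genes of groups 1 to 4. None of the 8 genes of groups 10 to 12 was detected, and of the 4 genes of group 13 Hoxc13 alone was. Groups 5 to 9 supplied 82.4% ± 1.28 of the summed Hox TPM (SD, n = 3), groups 1 to 4 10.7% ± 1.30, group 13 6.88% ± 0.160 and groups 10 to 12 0.0768% ± 0.0570.

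**Figure D1:**
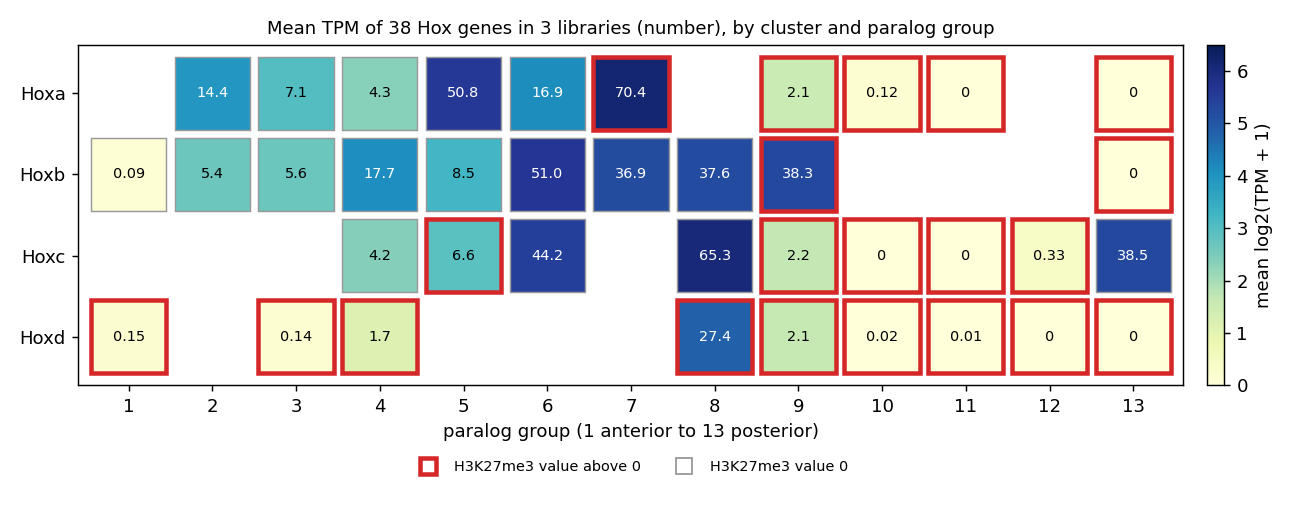
Mean TPM of each of the 38 Hox genes over 3 libraries (number in each square, colour on a log2 scale), with clusters in rows and paralog groups in columns; empty places are groups with no gene analysed in that cluster. Red outlines mark genes with a deposited H3K27me3 value above 0. Levels are highest in groups 5 to 9 and near 0 in groups 10 to 12, and Hoxc13 stands at 38.5 TPM in a column of zeros.

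The detected genes fell into 3 tiers of level, such that every library value of a tier lay above every value of the next. The upper tier held 9 genes, from Hoxa7 with 70.4 ± 1.50 TPM down to Hoxb7 with 36.9 ± 7.62 TPM (SD, n = 3). The next held Hoxd8, Hoxb4, Hoxa6 and Hoxa2, with means of 14.4 to 27.4 TPM. The lowest held 10 genes, from Hoxb5 with 8.50 ± 1.85 TPM through Hoxa3, Hoxc5, Hoxb3, Hoxb2, Hoxa4 and Hoxc4 to Hoxc9, Hoxd9 and Hoxa9 with means of 2.10 to 2.18 TPM. Of the 22 neighbouring pairs in the order of means, 19 had overlapping ranges, so ranges pooled over libraries do not settle most of the order. Compared within each library, some of these pairs kept their order throughout: Hoxa7 above Hoxc8, Hoxc6 above Hoxc13, Hoxb5 above Hoxa3 and Hoxb3 above Hoxb2. Other pairs changed order between libraries, Hoxb6 and Hoxa5 among them.

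Group 13 genes specify the tail end of the body axis, the digits and the urogenital tract, and Hoxc13 has in addition a known role in the hair follicle, where its loss in mice gives a defective hair shaft. Hoxc13 (chromosome 15, 102921103 to 102928814, plus strand, GRCm38) had 45.4, 37.3 and 32.7 TPM in replicates 1, 2 and 3. Those values rested on 1203, 1258 and 1243 counts. Hoxa13, Hoxb13 and Hoxd13 had 0 counts in all 3 libraries. The level of Hoxc13 thus overlapped those of Hoxb7, Hoxb8 and Hoxb9, while its nearest neighbour Hoxc12, 7.94 kb away, had 0.720, 0.142 and 0.126 TPM from 8, 2 and 2 counts. Hoxc13 is required in hair matrix cells for hair keratins, Foxn1 and Dsg4. In these telogen cells Foxn1 had 0.751, 0.818 and 1.37 TPM, and Krt33a, Krt35 and Dsg4 were each at or under 0.225 TPM in every library.

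Groups 10 to 12, which pattern the lumbar and sacral trunk and the limbs, were at or near 0. Hoxc10, Hoxc11, Hoxa11 and Hoxd12 had 0 counts in every library. In all, 7 of 38 Hox genes had 0 counts throughout, against 25.7% of protein-coding genes. A count of 0 allows up to 3 counts, which for these 7 genes equals 0.0768 to 0.146 TPM depending on gene and library (counting error only). Hoxa10, which also acts in the uterus, had 6, 7 and 1 counts, Hoxd10 had 1, 0 and 0, and Hoxd11 had 0, 1 and 0.

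Group 9 marked the edge of the block, and its 4 genes were unequal. Hoxb9 (chromosome 11, 96271457 to 96276595, plus strand), which patterns the thorax, had 41.2, 38.4 and 35.3 TPM. Hoxc9, a regulator of thoracic motor neuron identity, had 2.44, 2.16 and 1.92 TPM, Hoxd9 had 1.82, 2.05 and 2.43 TPM, and Hoxa9, also known from blood stem cells, had 3.69, 1.32 and 1.29 TPM. Hoxb9 was thus above the other group 9 genes in every library, with no overlap.

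In clusters a, c and d the group 9 gene was far below its anterior neighbour on the chromosome, and in cluster b it was not. Hoxb8 had 33.1, 49.0 and 30.8 TPM, overlapping the 35.3 to 41.2 TPM of Hoxb9. Hoxc8 (chromosome 15, 102990607 to 102994111, plus strand), a gene of thoracic vertebral identity, had 71.9, 65.1 and 59.0 TPM. Its level per length was 29.4, 30.1 and 30.7 times that of Hoxc9, which lies 5.51 kb away. Hoxa7 (chromosome 6, 52214491 to 52221854, minus strand) had 72.1, 69.4 and 69.7 TPM. That was 19.5, 52.5 and 54.0 times the level of Hoxa9, 1.25 kb away. Hoxd8 (chromosome 2, 74704615 to 74707933, plus strand) had 27.4, 27.8 and 27.03 TPM, or 15.0, 13.5 and 11.1 times the level of Hoxd9. These 3 pairs are described because of their drop. With 3 libraries of 1 group, a two-sided exact sign-flip permutation test cannot give a p below 0.25, so none is attached to them.

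The central groups carried most of the remaining signal. Hoxb6 had 72.1, 41.4 and 39.5 TPM, and Hoxa5, a gene of cervicothoracic and lung development, had 77.9, 34.9 and 39.6 TPM. Replicate 1 was above the other libraries for both genes. Hoxc6 had 54.9, 40.3 and 37.4 TPM and Hoxb7 45.3, 35.0 and 30.4 TPM. Hoxb8, whose loss in mice causes excessive grooming, was the member of this tier that peaked in replicate 2. Hoxa6 had 22.9, 15.7 and 12.2 TPM and Hoxb5 10.3, 8.55 and 6.63 TPM.

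Anterior genes ranged from the middle tier to near 0. Hoxb4, known for expanding blood stem cells when overexpressed, had 28.6, 13.1 and 11.3 TPM. Hoxa2, a hindbrain and branchial arch gene, had 18.1, 12.01 and 13.04 TPM. Hoxa3, needed for thymus and parathyroid development, had 8.62, 7.37 and 5.31 TPM. Hoxb2 and Hoxb3 were even across libraries, with 5.11 to 5.53 and 5.46 to 5.70 TPM, and Hoxa4 and Hoxc4 had 2.40 to 5.30 and 3.64 to 4.80 TPM. Hoxb1, a hindbrain gene, had 2, 0 and 7 counts. In cluster d, Hoxd1 had 9, 0 and 0 counts and Hoxd3 13, 7 and 0. Hoxd4 had 4.19, 0.471 and 0.506 TPM, so its mean was set by replicate 1. Of the annotated exon bases of Hoxd4, 52.3% are shared with other genes on the same strand, Hoxd3 among them. For Hoxd3 this share is 62.3%, with Hoxd4 among those genes. How reads in shared bases were counted was not stated.

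**Figure D2:**
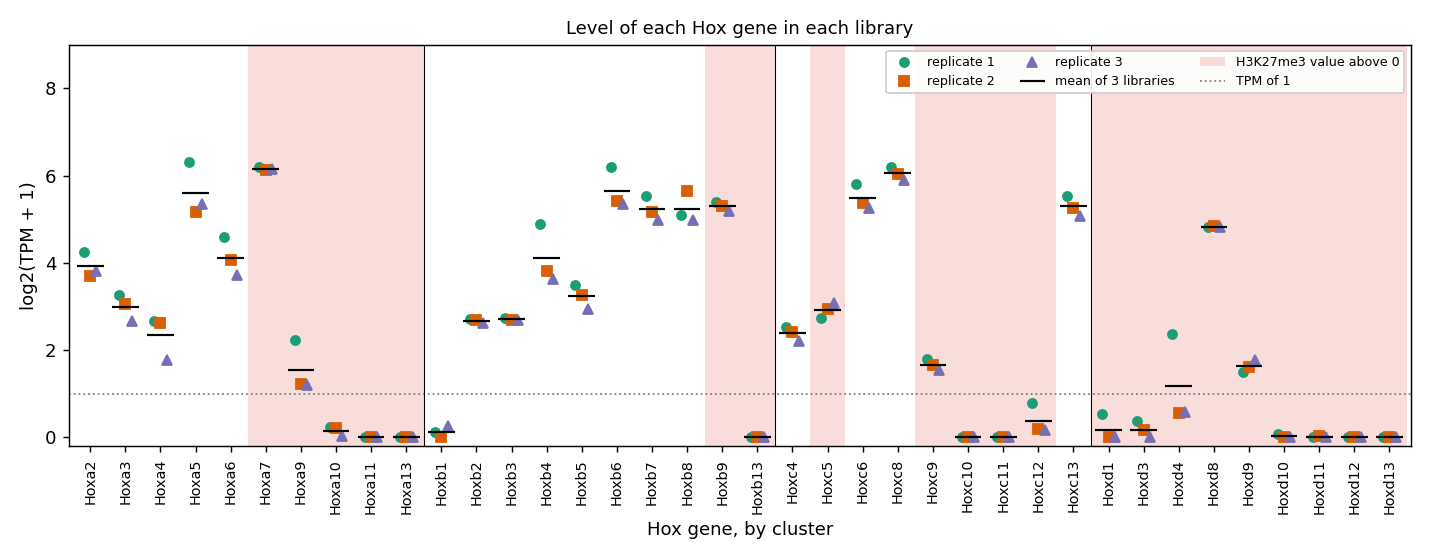
log2(TPM + 1) of each of the 38 Hox genes in replicates 1, 2 and 3 (points) with their mean (black line), ordered by cluster and paralog group; shading marks an H3K27me3 value above 0 and the dotted line a TPM of 1. Points of Hoxa7, Hoxd8, Hoxb2 and Hoxb3 lie almost on each other, whereas Hoxa5, Hoxb4, Hoxb6, Hoxa9 and Hoxd4 have replicate 1 above the others.

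Reproducibility differed among the members. The SD of log2(TPM + 1) over libraries ran from 0.02 for Hoxd8 to 0.68 for Hoxb4 among detected Hox genes, with a median of 0.28, against 0.25 over the 12049 genes detected. Against library totals, the chi-square per degree of freedom of the counts was under 3 for 8 of the 23 genes, Hoxa7, Hoxb3, Hoxb2 and Hoxd8 among them, and at least 10 for 14. The largest was 214, for Hoxa5. For a given relative spread this statistic grows with the counts of a gene, and it was not computed over all genes. Of the 23 genes, 19 were highest in replicate 1, where 59.8% of all detected genes were also highest. After rescaling with TMM factors (edgeR's trimmed mean of M-values), an alternative chosen after seeing the data, 12 of 23 Hox genes (52.2%) and 46.9% of all detected genes were highest there. The summed level of the fibroblast markers was lowest in replicate 1, at 23.5 TPM against 54.5 and 51.5 TPM. The melanocyte marker sum was highest there, at 60.0 against 41.7 and 38.7 TPM. Mitf supplied 44.4, 28.5 and 24.0 TPM of that sum. Pmel was also highest in replicate 1, but Dct and Mlana peaked in replicate 2 and Tyr and Tyrp1 in replicate 3. The part of either marker set in the differences between libraries was not tested.

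The clusters contributed unequally. Cluster b took 35.8% ± 1.43 of the summed Hox TPM, cluster a 29.5% ± 1.78, cluster c 28.9% ± 1.07 and cluster d 5.70% ± 0.572 (SD, n = 3). Cluster b was highest and cluster d lowest in 3 of 3 libraries, while clusters a and c changed places between libraries. Detected genes numbered 8 of 10 in cluster b, 7 of 10 in cluster a, 6 of 9 in cluster c and 2 of 9 in cluster d. Within cluster d, Hoxd8 alone accounted for a mean of 27.4 of 31.5 TPM.

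The authors' deposited table gives each gene 1 H3K27me3 value, whose unit and source cells were not stated. A value above 0 was held by 21 of 38 Hox genes, against 8.06% of all gene entries and 11.2% of protein-coding genes. Hox genes shared 5 such values. All 9 genes of cluster d had 140992, which ranks 2 among 2562 distinct values above 0. Hoxa7, Hoxa9, Hoxa10, Hoxa11 and Hoxa13 had 111971, rank 4. Hoxb13 had 79594, and Hoxb9 52302. Hoxc5, Hoxc9, Hoxc10, Hoxc11 and Hoxc12 had 54964. The remaining 17 genes had 0: Hoxa2 to Hoxa6, Hoxb1 to Hoxb8, Hoxc4, Hoxc6, Hoxc8 and Hoxc13.

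The value could be read as the length of a domain in bases. A domain must reach every gene that shares the value and stay clear of the genes with a value of 0, which sets a least and a greatest length from GENCODE M21 positions. The 5 Hox values lay between these lengths. Of 506 values in the table that were shared by at least 2 genes and could be tested this way, 490 did (96.8%). The bounds can be wide, 22269 and 169940 bases for Hoxb9, and the same space was used for Hoxb13. How often an arbitrary value would fall between such bounds was not tested. For the Hoxc value of 54964, the least length was 37831 bases and the space between the end of Hoxc13 and the start of Hoxc8 was 61792 bases. For the Hoxa value of 111971 these were 91645 and 131653 bases. Read this way, the Hoxc domain ran from Hoxc12 to Hoxc9 and left Hoxc13 outside on one side and Hoxc8 on the other.

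Detection followed this map with exceptions. Of the 17 Hox genes with a value of 0, 16 were detected, all but Hoxb1. Of the 21 with a value above 0, 7 were detected: Hoxa7, Hoxa9, Hoxb9, Hoxc5, Hoxc9, Hoxd8 and Hoxd9. Over all protein-coding genes, 13.8% of those with a value above 0 and 57.1% of those with a value of 0 were detected. The 7 genes with 0 counts in every library all had a value above 0. Hox genes of 1 cluster share a domain and are not independent, so no test was made.

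Several of the exceptions lay at a domain's edge. Hoxa7 and Hoxa9 were the anterior genes of the Hoxa domain, Hoxc9 the anterior gene of the Hoxc domain, and Hoxb9 the anterior gene of its domain. Hoxb9 was the only Hox gene with its value, and the other annotated genes sharing it, Gm11539, Gm53 and Mir196a-1, were also detected. Not every edge gene was detected. Hoxd1, at the anterior edge of the Hoxd domain, had 9, 0 and 0 counts. Hoxc12, at the other edge of the Hoxc domain, had 8, 2 and 2 counts. The Hoxa domain could start only beyond position 52215076 of chromosome 6, the end of the antisense gene Hoxaas3, so 79.6% of the exon bases of Hoxa7 lay where it could reach. Hoxc5 has a long gene model in GENCODE M21. Of its 3089 exon bases, 166 (5.37%) lay between Hoxc13 and Hoxc8, and these are shared with Hoxc10, whereas the RefSeq model of Hoxc5 covers 103014008 to 103017429 on chromosome 15, beyond Hoxc8. How values were assigned to genes was not stated. Hoxd8 and Hoxd9 were not at an edge: genes sharing their value flank them on both sides, from Evx2 to Hoxd1. Hoxd8 thus combined 27.4 ± 0.378 TPM (SD, n = 3) with the value that is largest among the Hox genes. Whether both come from the same cells cannot be told apart here.

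**Figure D3:**
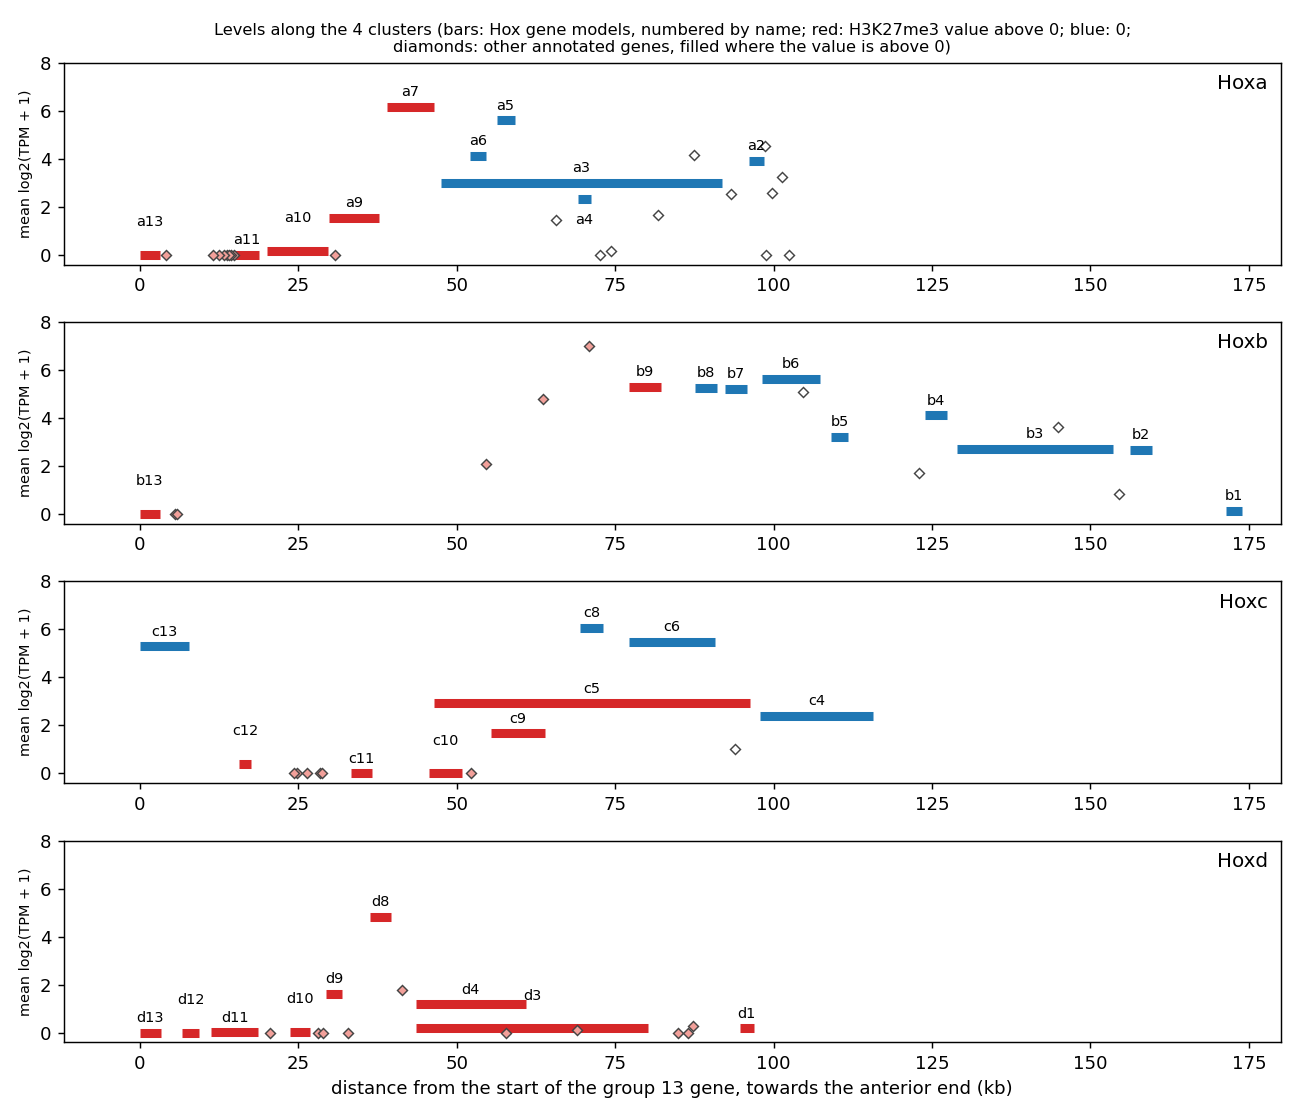
Mean log2(TPM + 1) of Hox gene models (bars, at their position and length) and of other annotated genes (diamonds) along the 4 clusters, against the distance in kb from the group 13 gene. Red bars and filled diamonds have an H3K27me3 value above 0. Red bars lie near 0 except for Hoxa7, Hoxa9, Hoxb9, Hoxc5, Hoxc9, Hoxd4, Hoxd8 and Hoxd9, and the bar of Hoxc13 is blue beside the red Hoxc12.

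Promoter sequences are shown for 5 genes that span these classes, as the 250 bases before the RefSeq start, 5′ to 3′ on the gene's strand (RefSeq, GRCm38.p6). Capitals mark CG dinucleotides, which are dense in the promoters to which Polycomb complexes bind. Hoxa5 was detected with a value of 0, Hoxa7 and Hoxd8 were detected with a value above 0, and Hoxa11 and Hoxd10 were silent or nearly so. Their positions are chr6:52204588-52204837, chr6:52218574-52218823 and chr6:52245811-52246060 on the minus strand for Hoxa5, Hoxa7 and Hoxa11, and chr2:74704365-74704614 and chr2:74691641-74691890 on the plus strand for Hoxd8 and Hoxd10.
Hoxa5: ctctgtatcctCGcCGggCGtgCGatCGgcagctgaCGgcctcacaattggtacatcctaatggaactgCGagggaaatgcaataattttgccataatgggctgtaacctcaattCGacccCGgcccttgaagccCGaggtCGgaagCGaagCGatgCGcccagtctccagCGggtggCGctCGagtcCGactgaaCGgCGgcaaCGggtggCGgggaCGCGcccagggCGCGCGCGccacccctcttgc
Hoxa7: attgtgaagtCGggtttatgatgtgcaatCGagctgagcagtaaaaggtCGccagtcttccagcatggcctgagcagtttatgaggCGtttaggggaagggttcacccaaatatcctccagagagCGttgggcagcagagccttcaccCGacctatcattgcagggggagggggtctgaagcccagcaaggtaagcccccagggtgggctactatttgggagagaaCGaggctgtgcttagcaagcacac
Hoxa11: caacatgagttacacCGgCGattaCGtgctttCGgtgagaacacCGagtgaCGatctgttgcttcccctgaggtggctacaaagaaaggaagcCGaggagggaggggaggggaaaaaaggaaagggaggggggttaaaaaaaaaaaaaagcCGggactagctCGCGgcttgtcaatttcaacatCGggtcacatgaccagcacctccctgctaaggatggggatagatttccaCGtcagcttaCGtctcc
Hoxd8: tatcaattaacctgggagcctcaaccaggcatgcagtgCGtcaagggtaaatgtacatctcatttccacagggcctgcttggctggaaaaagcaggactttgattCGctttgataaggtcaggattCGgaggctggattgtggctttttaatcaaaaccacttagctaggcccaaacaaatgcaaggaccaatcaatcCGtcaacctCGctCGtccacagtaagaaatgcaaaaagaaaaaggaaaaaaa
Hoxd10: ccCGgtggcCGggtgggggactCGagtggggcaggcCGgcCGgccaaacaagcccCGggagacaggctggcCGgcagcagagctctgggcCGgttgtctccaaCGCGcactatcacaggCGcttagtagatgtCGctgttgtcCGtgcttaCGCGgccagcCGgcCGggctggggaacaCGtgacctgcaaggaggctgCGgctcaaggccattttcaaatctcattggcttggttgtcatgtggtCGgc

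The Hoxa5 window held 28 CG dinucleotides, that of Hoxd10 20, that of Hoxa11 13, that of Hoxa7 7 and that of Hoxd8 6. Windows were found for 22 of the 38 genes (24 windows), with a median of 12.5 CG dinucleotides against 6 over 32851 windows of all genes. The median was 12 for detected and 13 for other Hox genes. The 4 detected genes with a value above 0 and a window were Hoxa7, Hoxa9, Hoxd8 and Hoxd9, with 7, 3, 6 and 13. The joint Pbx and Hox binding motif TGATNNAT was searched on both strands. It occurred in 4 of the 24 Hox windows (Hoxa2, Hoxb1, Hoxb8 and Hoxd11) and in 7.68% of all windows, which is a match of letters and not evidence of binding.

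The authors deposited a fold change for each gene, read from column names as these libraries against bulge libraries, which were not analysed here. The sign was taken from genes with 0 counts in all 3 libraries, of which 2555 of 2555 with a fold change had a negative one, so positive means higher in the cells described here. Of 38 Hox genes, 27 had an adjusted p-value in the authors' deposited table. At an adjusted p under 0.05, 9 of them were called higher, against 23.6% of all 20274 genes with one, and 2 lower, against 32.0%. The median log2 fold change was 0.48 for these Hox genes and -0.36 over all genes. The other 11 had none, and each of them had few or 0 counts here.

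The higher calls lay mainly in cluster b, with 6 of its 9 tested genes. By the authors' deposited table, Hoxb2 had the largest log2 fold change of any Hox gene, 4.37 (adjusted p-value 4.94e-09). Hoxb8 had 1.88 (1.51e-08), Hoxb9 1.80 (3.86e-11), Hoxb6 1.29 (3.72e-06), Hoxb3 1.04 (0.0110) and Hoxb7 1.02 (0.00102) in the authors' deposited table. Outside cluster b the authors' deposited table called Hoxc9 higher by 1.95 (0.0259), Hoxa5 by 0.89 (0.00807) and Hoxa7 by 0.55 (0.0372). The lower calls in the authors' deposited table were Hoxa2 with -0.76 (0.0183) and Hoxc8 with -0.62 (0.00236). Hoxc8, with the second highest mean level here, was thus also a lower call. Hoxc13 was not called, with -0.26 (0.323), nor was Hoxd8, with 0.42 (0.179), in the authors' deposited table. Of the exon bases of Hoxb2 and Hoxb3, 27.3% and 52.9% overlap the antisense gene Hoxb3os, and the strand setting of the counting was not stated.

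**Figure D4:**
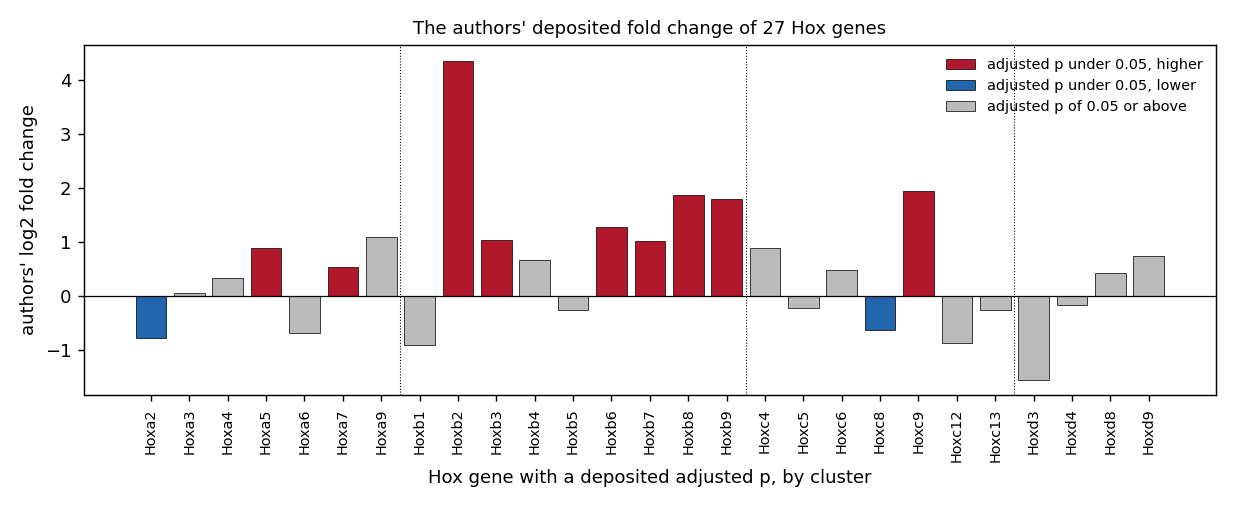
The authors' deposited log2 fold change (bars) of the 27 Hox genes with a deposited adjusted p-value, ordered by cluster; positive means higher in the Alpha6+/Sca1- libraries. Red bars are called higher and blue bars lower at an adjusted p under 0.05. Cluster b holds 6 of the 9 red bars, and Hoxb2 is the tallest at 4.37.

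The deposited score is a product whose first factor is the H3K27me3 value with 1 added, the others being the fold change and its significance. A value above 0 therefore weighs heavily in its size, but so do the other factors. At the same value of 54964, the score was -2027 for Hoxc5 and 170366 for Hoxc9 in the authors' deposited table. In the authors' deposited table Hoxb9 ranked 4 of 20274, Hoxc9 18, Hoxa9 32, Hoxa7 39, Hoxd8 73 and Hoxd9 84. At the other end Hoxd3 ranked 20182 in the authors' deposited table. Hox genes with a value of 0 ranked between 1227 (Hoxb2) and 13075 (Hoxc8) in the authors' deposited table, so Hoxb2 and Hoxb8, with larger fold changes than Hoxb9, ranked lower than Hoxb9.

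Of 46 other genes annotated inside the clusters, 10 were detected and 27 had 0 counts in every library. Over all 44625 gene entries, 12049 were detected and 22282 had 0 counts in every library. Whether genes inside the clusters differ from all entries in these shares was not tested. Cluster c had 0 detected of 7, among them the long non-coding RNA Hotair with 0 counts. In cluster b, Gm53 had 31.0, 25.8 and 24.7 TPM and the antisense gene Hoxb5os 28.5, 31.6 and 38.3 TPM. In cluster a, Hotairm1 had 12.3, 8.27 and 4.93 TPM. Hoxd3os1 in cluster d had 3.52, 2.34 and 1.26 TPM, above Hoxd3 itself in every library. Because 62.3% of the exon bases of Hoxd3 are shared with other genes on the same strand, this comparison is limited. Hoxd3os1 was called lower in the authors' deposited table, with -2.31 (adjusted p-value 2.43e-07).

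Hox clusters also hold microRNA genes of the miR-10 and miR-196 families, and miR-196 is known to target Hox messages, Hoxb8 above all. Their mature 5p sequences are shown because family members differ outside the seed, which is in capitals (bases 2 to 8, RefSeq, GRCm38.p6).
miR-196a-5p: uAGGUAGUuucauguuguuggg
miR-196b-5p: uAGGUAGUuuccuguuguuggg
miR-10a-5p: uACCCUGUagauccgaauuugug
miR-10b-5p: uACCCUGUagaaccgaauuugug
The miR-196 sequences share the seed AGGUAGU and differ at 1 base, and those of miR-10 share ACCCUGU and differ at 1 base. The Mir196a-1 gene, 102 bases long between Hoxb13 and Hoxb9, had 185, 182 and 136 counts. Mir196a-2 in cluster c and Mir196b in cluster a had 0 counts, as did Mir10b in cluster d. All 4 of these genes, Mir196a-1 included, had an H3K27me3 value above 0, 52302 for Mir196a-1. Mir10a beside Hoxb4 had 8, 0 and 0 counts. Such counts in libraries of polyadenylated RNA do not measure mature microRNA, and which transcripts gave them was not tested.

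Genes just outside the clusters were mostly detected. Of the 24 nearest protein-coding genes, 3 on each side of each cluster, 19 were detected and 4 had an H3K27me3 value above 0. Over all protein-coding genes these shares were 52.2% and 11.2%. The 4 genes were Evx1, Evx2, Ttll6 and Skap1. Each was the nearest protein-coding gene on its side of a cluster, and none was detected. Evx1 and Evx2, homeobox genes beside Hoxa13 and Hoxd13, had 0 counts and shared the values of their Hox neighbours. On the other side of cluster d, Mtx2 had 32.1 ± 7.01 TPM (SD, n = 3) at 60.7 kb with a value of 0. Beyond the anterior end of cluster a, Skap2 had 20.5 ± 0.448 TPM at 143 kb, and Skap1 beyond cluster b had 0 counts and a value of 8169. Of the 8 ParaHox and Evx genes, relatives of the Hox genes, 0 were detected and all had a value above 0.

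Hox proteins bind DNA together with TALE homeodomain partners of the Pbx, Meis and Pknox families. Several of these genes were detected in every library. Pbx2 had 42.9, 41.2 and 44.5 TPM, Pbx3 17.4, 18.7 and 17.2 TPM and Pknox1 15.9, 15.3 and 11.6 TPM. Meis1 had 5.85 ± 2.06 TPM (SD, n = 3) and Pknox2 3.99 to 4.01 TPM. Meis2 stayed at 0.585 to 0.678 TPM with an H3K27me3 value of 54612, and Meis3 at 0.347 to 0.848 TPM.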

How the data were processed

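The data were 3 polyadenylated RNA libraries of 1 group of wild-type mice. Per the file headers, the deposited values include whole-number counts and TPM for each gene. TPM recomputed from counts and deposited length differed by at most 4.72e-06. FastQC, SAMtools, TopHat2, DESeq2 and DESeq, with mm10 and GRCm38, are named in the submitters' processing notes, with no roles. The counting tool and strand setting are not given in the sources used here. The authors also deposited a log2 fold change, its adjusted p-value and a score per gene, per the file headers. The deposited score equalled its stated product within 0.1% for all but 0 of 20274 genes. Another 6 columns of per-sample values matched no sample and were not used.

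Positions came from GENCODE M21 by identifier (44392 of 44625 found). The deposited gene lengths equalled the summed exon bases there for the 38 genes. Detection was a TPM of at least 1 in every library, and logs used a pseudocount of 1. Every member is named, together with genes inside the clusters, the 3 nearest protein-coding genes on each side and fixed lists. One gene of the cofactor list is not reported here. Members and lists were chosen with earlier results of these data known. No test between groups was possible. The counting functions were tested on simulated data. Alternatives varied the TPM limit, pseudocount, scaling (edgeR 4.0.16), thresholds and libraries. Python 3.11.15 and R 4.3.3 were used.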

Additional observations from a re-analysis of the deposited data

How the results depend on the processing

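The number of detected Hox genes was 23 at limits of 1 and 0.5 TPM, 18 at 5 TPM and 24 both by mean TPM and by at least 10 counts, and 23 without any 1 of the 3 libraries. Without division by gene length, the shares of clusters b, c and d moved by more than their SD, to 33.9%, 30.8% and 6.28%, with cluster b still highest and cluster d lowest. The number called lower in the authors' deposited table was 1 at an adjusted p under 0.01 and 0 with a log2 fold change of at most -1, and that called higher was 6 and 7. Hox genes with 0 counts numbered 7 to 9 without 1 library. With a pseudocount of 0.1, 7 of the 23 mean log2 levels moved by more than 1 SD. Leaving out 1 of 3 libraries cannot move such a mean by that much, and TMM factors that multiply to about 1 can hardly do so, so those settings say nothing of its stability. No paired analysis was possible because all libraries form 1 group. Depth limits the lowest genes: 3 counts of a gene listed at 0 equal 0.0768 to 0.146 TPM. The unit and source cells of the H3K27me3 value limit every statement that uses it.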

Other observations

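Genes that maintain or oppose Hox repression were all detected. Polycomb core genes, which encode the H3K27 methyltransferase complex and the H2A ubiquitin ligase complex, were detected in 14 of 14 cases, and the 7 trithorax and H3K27 demethylase genes in 7 of 7, against 52.2% of protein-coding genes. Ezh1 had 46.4, 35.0 and 30.9 TPM and Ezh2, its relative typical of dividing cells, 14.1, 4.87 and 3.91 TPM. Among Cbx subunits, Cbx7 had 31.9, 17.0 and 14.1 TPM and Cbx2 21.9, 15.4 and 13.4 TPM. The demethylase genes differed between libraries in opposite directions: Kdm6b had 22.8, 55.5 and 43.8 TPM and Kdm6a 20.3, 10.3 and 10.9 TPM. Kmt2a, a methyltransferase that maintains Hox expression, had 29.3, 17.9 and 16.5 TPM. The authors' deposited table called 5 of the 14 Polycomb genes higher and 4 lower, and 3 higher and 3 lower of the 7 others. Over all 20274 genes with an adjusted p-value in that table, 23.6% were called higher and 32.0% lower.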
